A study of Homo sapiens with 17 samples.

Results

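Alternative end joining and poly(ADP-ribose) signalling were followed through 8 genes, POLQ, PARP1, PARP2, LIG1, LIG3, XRCC1, FEN1 and APEX1, in ribosome footprints and mRNA of HEK293 cells after a Cas9 cut. The genes were chosen by name for their roles in these pathways, and all 8 were measured, among 15660 genes that had a count at 36 h and 17023 that had one at 72 h. HEK293 is a human embryonic kidney cell line. Cells were electroporated with Cas9 or with catalytically inactive dCas9, each loaded with sgIntron, a guide to intron 12 of JAK2, so that both groups received protein and guide and only Cas9 could cut. The labels of all 17 libraries give the same dose, with equal molar amounts of nuclease and guide. The paper describes 2 electroporation protocols with different amounts and does not state which amounts these libraries received. Cells were lysed 36 or 72 h later. At each time point there were 2 footprint libraries with Cas9 and 2 with dCas9, and 2 mRNA libraries in each group except Cas9 at 36 h, which had 3. The guide was synthetic at 36 h and transcribed in vitro at 72 h, and several electroporations were pooled into 1 plate for each replicate. All 17 libraries came from 1 cell line and 1 cut site, and the share of cut cells was not measured in them.

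Polymerase theta, encoded by POLQ, joins broken ends that have been resected to expose short stretches of matching bases, a route called alternative or theta-mediated end joining. PARP1 and PARP2 bind DNA breaks and build poly(ADP-ribose) chains that recruit repair factors, XRCC1 is a scaffold that these chains attract, and LIG3 is the ligase that XRCC1 stabilizes. LIG1 joins Okazaki fragments and can also seal ends in alternative end joining, and FEN1 removes the flaps that strand displacement leaves. APEX1 is the main endonuclease for abasic sites in base excision repair. In a ribosome profile, footprints report where ribosomes sit on coding sequence, so footprints relative to mRNA give a measure of how heavily each mRNA is translated.

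The bases around each start codon are shown because the 8 genes differed widely in footprints relative to mRNA, and this context is a sequence feature that the choice of genes did not use. Each stretch runs 5′ to 3′ from the coding strand, with the ATG in capitals, and comes from the transcript that held most counts, on hg38 in GENCODE release 44.
POLQ: agagtttgccATGaatcttctg
PARP2: ttcgaattccATGgcggcgcgg
LIG3: aggcagctatATGtctttggct
LIG1: tgacgccaacATGcagcgaagt
PARP1: ctaggggaggATGgcggagtct
XRCC1: cgacgttgacATGccggagatc
APEX1: cgtaacgggaATGccgaagcgt
FEN1: ctgtgttgccATGggaattcaa
The start codons lie at chr3:121545875-121545877 for POLQ, on the minus strand, at chr14:20343642-20343644 for PARP2 and chr14:20455646-20455648 for APEX1, both on the plus strand, and at chr11:61795362-61795364 for FEN1, also on the plus strand. PARP2 and LIG3 carried a T at position -3, counted from the A of the ATG, which 4.51% of 8787 tested genes with a known context had at 36 h and 5.24% of 10549 had at 72 h. The other 6 genes had a purine there, as did 87.7% and 86.0% of genes. PARP1, PARP2 and FEN1 had a G right after the ATG, a base that 54.2% and 53.7% of genes shared. POLQ, PARP2, LIG1 and LIG3 each had 1 further ATG upstream in the 5′ leader, of which 39.8% and 42.0% of genes had at least 1. The PARP2 leader was 27 bases long, against 69 to 237 in the other genes. These are descriptions of the sequence, and no effect of any of these bases was tested.

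Sequencing depth differed between the libraries. Total counts per footprint library were 689636 to 4868580 at 36 h and 3183558 to 8864455 at 72 h, and those per mRNA library 25095505 to 42825662 over both times. The lowest total belonged to dCas9 replicate e of the 36 h footprints. The markers NEFL, NEFM and INA, neurofilament genes typical of HEK293, were present in every library, while PAX2, a kidney developmental gene, held no more than 12 counts. Of 7 markers of other cells, CD3E and HBB had no count, PTPRC, ALB and APOA1 no more than 22, COL3A1 no more than 32 and COL1A1 from 7 to 252. JAK2, the gene carrying the cut, had 131 to 472 mRNA counts and 0 to 23 footprint counts per library. Its footprint counts were too low for the gene to be tested, since both library types had to reach the minimum. The genes tested had a mean count of at least 20 in each library type, 9016 at 36 h and 10896 at 72 h, and all 8 genes of interest passed.

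PARP1 was by far the most abundant of the 8 and POLQ the scarcest. On the scale of normalized counts (CPM) per kb of coding length, PARP1 mRNA stood at 597 ± 31.0 (SD, n = 5) over all 36 h libraries and 498 ± 74.6 (SD, n = 4) at 72 h. POLQ mRNA stood at 11.5 ± 1.47 (SD, n = 5) and 16.8 ± 2.30 (SD, n = 4). The SD values here and for the footprint levels below pool Cas9 and dCas9 libraries. PARP1 mRNA at 72 h averaged 438 with Cas9 and 559 with dCas9. APEX1 mRNA came next after PARP1 at 36 h, with 230 ± 4.65 (SD, n = 5), followed by FEN1 with 142 ± 2.40 (SD, n = 5). At 36 h the ranges of PARP1, APEX1 and FEN1 mRNA did not overlap, whereas LIG1, PARP2, LIG3 and XRCC1, with means between 46.1 and 53.6 CPM per kb, overlapped their neighbours.

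Footprints gave nearly the same order of levels. PARP1 footprints averaged 494 ± 9.77 CPM per kb (SD, n = 4) at 36 h and 530 ± 2.61 (SD, n = 4) at 72 h. FEN1 and APEX1 followed with overlapping ranges, at 297 ± 47.5 and 279 ± 36.7 at 36 h and 227 ± 5.85 and 215 ± 5.82 at 72 h (SD, n = 4 each). LIG1, XRCC1 and LIG3 lay together between 35.4 and 43.2 on average, and PARP2 stood below them at 25.9 ± 8.13 and 24.6 ± 2.96 (SD, n = 4 each). Per kb, each library held 10.1 to 13.8 times as much PARP1 as PARP2 mRNA, and 15.3 to 34.1 times as many PARP1 as PARP2 footprints. The ligases were close to each other, with LIG1 at 0.78 to 1.30 times LIG3 in mRNA and 0.83 to 1.91 times in footprints. Both upper footprint ratios came from dCas9 replicate e at 36 h, the shallowest library, which held 16 PARP2 footprint counts. The next highest were 24.6 for PARP1 over PARP2 and 1.23 for LIG1 over LIG3.

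**Figure D1:**
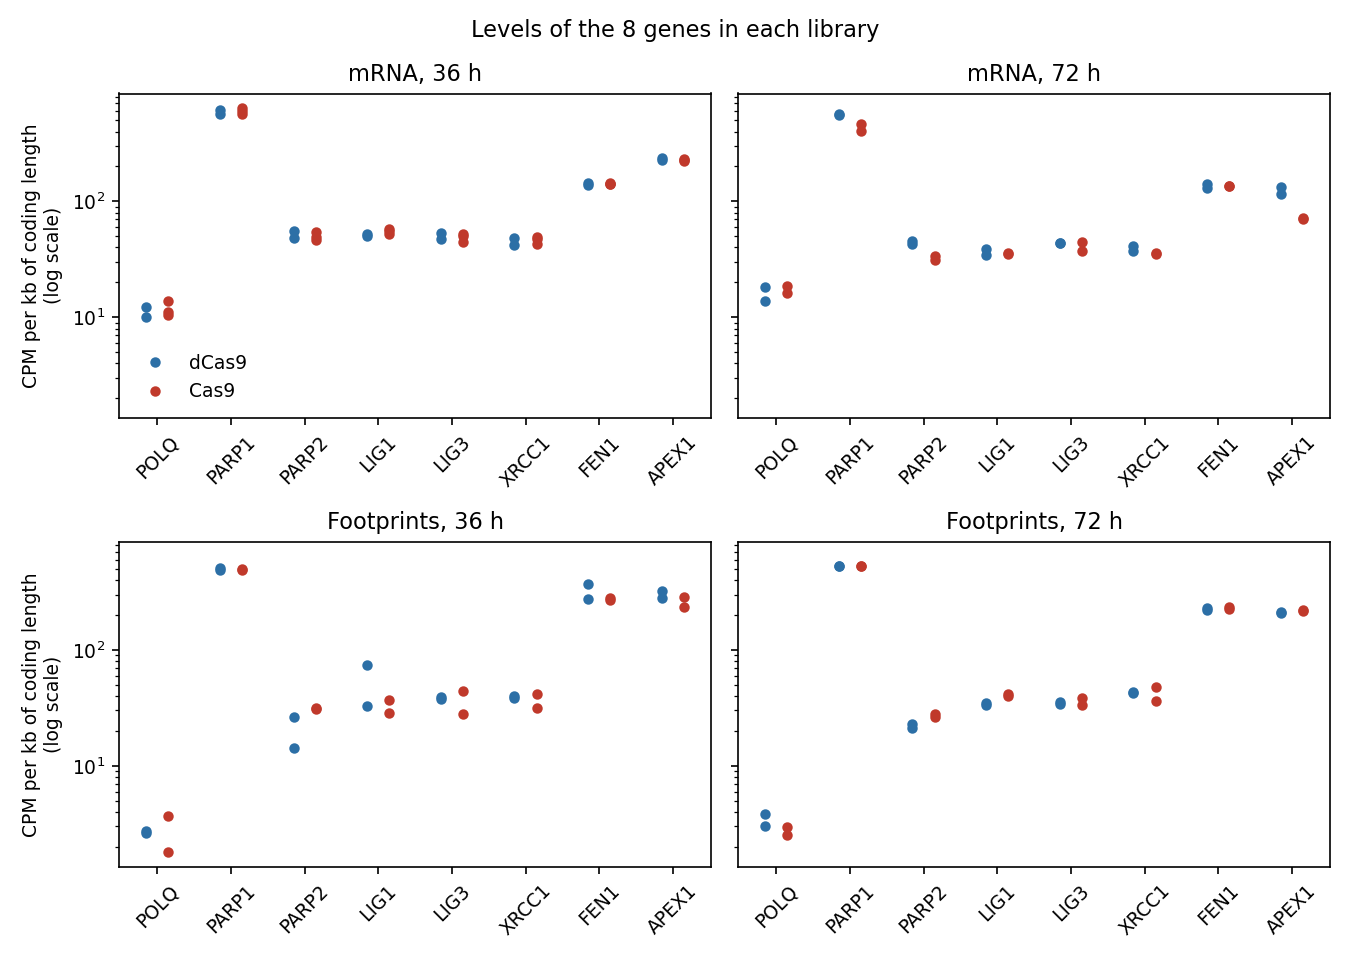
Normalized counts per kb of coding length (CPM per kb, log axis) of the 8 genes in each library, with mRNA above and footprints below, 36 h on the left and 72 h on the right, and 1 point for each library. PARP1 is highest in all panels and POLQ lowest, and POLQ sits lower in footprints than in mRNA.

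POLQ mRNA carried few ribosomes for its amount. In the dCas9 cells POLQ had 20.2 and 21.0 CPM in footprints against 94.2 and 77.3 CPM in mRNA at 36 h, and 29.5 and 23.5 against 107 and 142 at 72 h, so footprints lay below mRNA in every library. On a scale where the typical gene is near 0, the log2 value of footprints relative to mRNA was -1.92 (SE 0.28) at 36 h and -2.09 (SE 0.17) at 72 h, with adjusted P = 7.1e-05 and 1.9e-08 by the quasi-likelihood test of edgeR and the Benjamini-Hochberg method. This put POLQ at percentile 2.1 of all tested genes at 36 h and 2.2 at 72 h. The values rest on few reads. POLQ footprints came to 13 counts in Cas9 replicate a at 36 h (95% exact Poisson interval 6.92 to 22.2), 14 in dCas9 replicate e, and 70 to 207 in the other 6 libraries, and such intervals cover counting error only.

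PARP2 mRNA was also lightly occupied, while FEN1 and APEX1 were heavily occupied. For PARP2 the log2 value was -1.04 (SE 0.23) at 36 h and -0.84 (SE 0.13) at 72 h, with adjusted P = 0.0021 and 2.2e-05 by edgeR. PARP2 at 36 h had 220 footprint counts in dCas9 replicate d and 16 in dCas9 replicate e (44.4 and 24.1 CPM). Without replicate d its value was -1.71, and without replicate e -0.85. For FEN1 the log2 value was 1.31 (SE 0.15) and 0.88 (SE 0.10), with adjusted P = 6.9e-06 and 6.9e-07 by edgeR. For APEX1 it was 0.54 (SE 0.13) and 0.91 (SE 0.10), with adjusted P = 0.0055 and 1.3e-06 by edgeR. Both therefore stood in the upper part of all genes, at percentiles 92.5 and 86.3 for FEN1 and 74.5 and 86.9 for APEX1.

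PARP1, LIG1 and LIG3 had log2 values between -0.23 and 0.07 at both times, and none passed the threshold. XRCC1 had a value of -0.04 (SE 0.19) at 36 h and 0.26 (SE 0.13) at 72 h, and the second passed with adjusted P = 0.080 by edgeR. That call for XRCC1 was lost in 4 of the alternatives, among them the removal of the GC trend (0.06, adjusted P = 0.59 by edgeR). In all, 4 of the 8 genes passed the false discovery rate of 0.1 at 36 h, where 48.2% of all tested genes did, and 5 of 8 at 72 h, where 70.6% did, so the count of genes past the threshold was near or below the background. At 36 h the fit of both library types called too many genes in simulated counts, so its P values may be too small there, and POLQ, PARP2, FEN1 and APEX1 also passed with limma, which weights the library types apart. LIG1 at 36 h rested on which dCas9 library was kept, with 0.71 (adjusted P = 0.0079 by edgeR) without replicate d and -0.50 (adjusted P = 0.025 by edgeR) without replicate e.

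**Figure D2:**
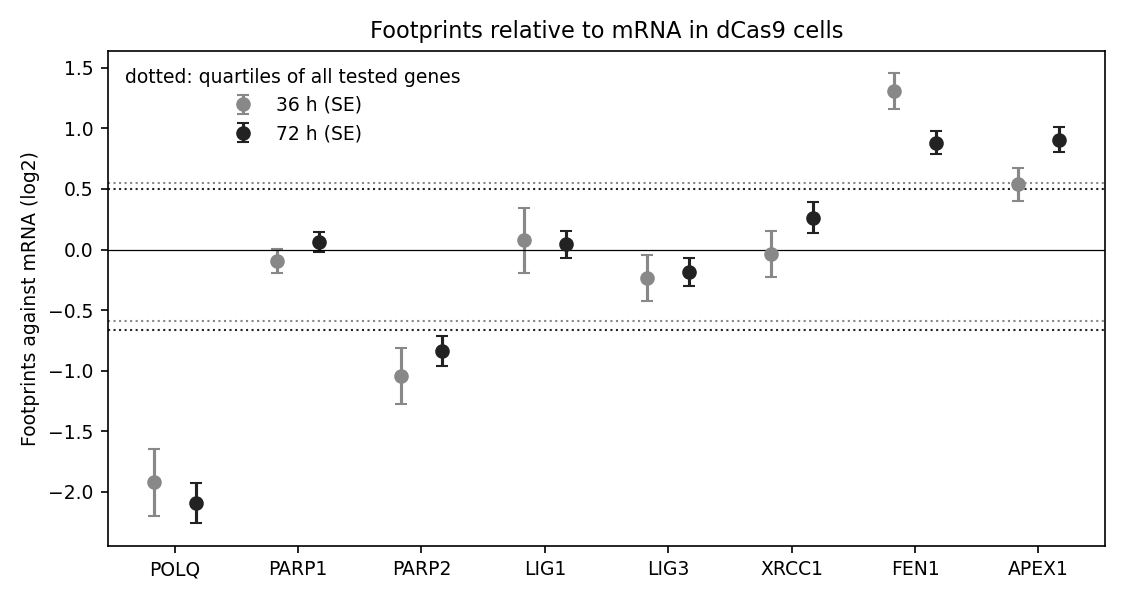
Footprints relative to mRNA (log2, with SE) in dCas9 cells for the 8 genes at 36 h (grey) and 72 h (black), with dotted lines at the quartiles of all tested genes. POLQ (-1.92 and -2.09) and PARP2 (-1.04 and -0.84) lie below the lower quartile at both times, and FEN1 (1.31 and 0.88) above the upper quartile.

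Among all tested genes, those with at least 1 upstream ATG had a median log2 value of -0.32 at 36 h and -0.43 at 72 h, against 0.14 at both times for those without. POLQ, PARP2, LIG1 and LIG3 were in the group with an upstream ATG. Of these, LIG1 and LIG3 did not pass, with values of 0.07 and -0.23 at 36 h. Genes with T at position -3 had medians of -0.13 and -0.23, against -0.01 and -0.05 for those without. Footprints relative to mRNA also rose with the GC content of the coding sequence across genes, with a rank correlation of 0.26 over 8994 genes at 36 h and 0.35 over 10853 at 72 h. POLQ had the lowest GC content of the 8 (41.1%) and PARP2 the next (46.4%). With the GC trend of each library removed, POLQ stood at -1.73 and -1.69 and PARP2 at -0.76 and -0.48, and both passed the test at both times. The part of these sequence features in the values of the 8 genes was not tested.

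The first question the design asks is whether the Cas9 cut altered ribosome occupancy of these genes. No member passed the threshold in footprints, at 36 h, where 0% of all tested genes did, or at 72 h, where 0.0367% did. At an unadjusted P below 0.05, 188 genes (2.09%) were found at 36 h and 418 (3.84%) at 72 h, and LIG1 at 72 h was the single member among them. With DESeq2, too, no member passed at either time. In bulk libraries, fewer cells of a kind and less RNA per cell cannot be told apart.

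At 72 h most footprint values of the 8 genes were tight. PARP1 gave 1584 and 1582 CPM with Cas9 against 1588 and 1570 with dCas9, a log2 change of 0.00 with a 95% interval of -0.11 to 0.12. APEX1 gave 200 and 193 against 191 and 187, a change of 0.05 (-0.11 to 0.22), and FEN1 a change of 0.03 (-0.13 to 0.19). LIG3 and XRCC1 changes were 0.05 (-0.15 to 0.24) and 0.00 (-0.23 to 0.23).

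LIG1, PARP2 and POLQ footprints had groups that did not overlap at 72 h. LIG1 gave 111 and 109 CPM with Cas9 against 93.7 and 90.9 with dCas9, a log2 change of 0.25 (SE 0.10, adjusted P = 1.0 by edgeR). PARP2 gave 47.1 and 44.4 against 39.0 and 36.1, a change of 0.28 (SE 0.14). POLQ gave 22.9 and 19.3 against 29.5 and 23.5, a change of -0.34 (SE 0.19). With APEX1, 4 of 8 genes had footprint groups that did not overlap, which 31.7% of all tested genes had.

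At 36 h the footprint values were looser, and 1 library set 2 of them. LIG1 gave 77.4 and 98.9 CPM with Cas9 against 88.6 in dCas9 replicate d and 201.5 in dCas9 replicate e, the shallowest library. The log2 change of -0.65 (SE 0.34) became 0.01 without replicate e and -1.18 (adjusted P = 0.046 by edgeR) without replicate d. PARP2 gave 52.7 and 53.7 CPM with Cas9 against 44.4 and 24.1 with dCas9, and its change of 0.56 (SE 0.42) became 0.26 without replicate e and 1.14 without replicate d. Footprint groups did not overlap for 1 of the 8 genes, PARP2, and for 30.5% of all tested genes. The part of library depth in these values was not tested.

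In mRNA at 36 h, Cas9 and dCas9 cells were close for all 8 genes. No member passed, as against 0.0222% of all tested genes, and the log2 changes lay between -0.06 for PARP2 and 0.10 for LIG1, with SE from 0.09 to 0.11. APEX1 mRNA was 205, 205 and 200.3 CPM with Cas9 and 204 and 212 with dCas9, and PARP1 mRNA 1794, 1691 and 1894 against 1836 and 1680, so both overlapped between the groups. POLQ mRNA was 86.4, 81.1 and 106 against 94.2 and 77.3, which also overlapped. Groups did not overlap for 1 of the 8 genes, LIG1, and for 16.9% of all tested genes.

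At 72 h APEX1 mRNA was lower in Cas9 than in dCas9 cells. It was 63.8 and 63.0 CPM with Cas9 against 105 and 118 with dCas9, so that both Cas9 libraries lay well below both dCas9 libraries. The log2 change was -0.82 (SE 0.13, 95% interval -1.06 to -0.57), which is 0.57 times the dCas9 level, with adjusted P = 0.024 by the quasi-likelihood test of edgeR and the Benjamini-Hochberg method. APEX1 was the 1 member past the threshold, where 2.69% of all tested genes passed, 290 of them lower (2.66%) and 3 higher. The change held in all 8 alternatives that kept every library (-0.83 to -0.77), and it missed the threshold without mRNA Cas9 replicate a (-0.82, adjusted P = 0.21 by edgeR). Left-out libraries otherwise gave values between -0.90 and -0.72.

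PARP1 and PARP2 mRNA were lower too, though neither passed. PARP1 gave 1214 and 1398 CPM with Cas9 against 1651 and 1687 with dCas9, a log2 change of -0.35 (SE 0.11, adjusted P = 0.16 by edgeR). PARP2 gave 52.3 and 57.4 against 71.9 and 76.7, a change of -0.44 (SE 0.13, adjusted P = 0.14 by edgeR). Their groups did not overlap, and the calls depended on the processing. PARP1 passed in 4 and PARP2 in 5 of the 8 alternatives that kept every library. Among these was the removal of the GC trend, with adjusted P = 0.029 and 0.0047 by edgeR. That fit called 2377 of all 10896 tested genes, beside 293 in the main fit. The other alternatives that kept every library called 185 to 829 genes. A crossed replicate block, also among the 8 for APEX1, was chosen after seeing the data.

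The other 5 genes had smaller mRNA changes at 72 h. XRCC1 gave 66.4 and 65.1 CPM against 75.8 and 69.1, groups that did not overlap, for a log2 change of -0.14 (SE 0.13). LIG3 changed by -0.09 (-0.35 to 0.16), LIG1 by -0.05 (-0.30 to 0.20), FEN1 by 0.02 (-0.21 to 0.26) and POLQ by 0.11 (-0.19 to 0.41), with 95% intervals in parentheses. Groups did not overlap for 4 of the 8 genes, beside 49.6% of all tested genes. Across 10853 genes the mRNA change at 72 h fell with the GC content of the coding sequence (rank correlation -0.42). APEX1 has 52.7% GC, and its change with the GC trend removed was -0.77 (adjusted P = 0.0029 by edgeR), in a fit that called 2377 genes.

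**Figure D3:**
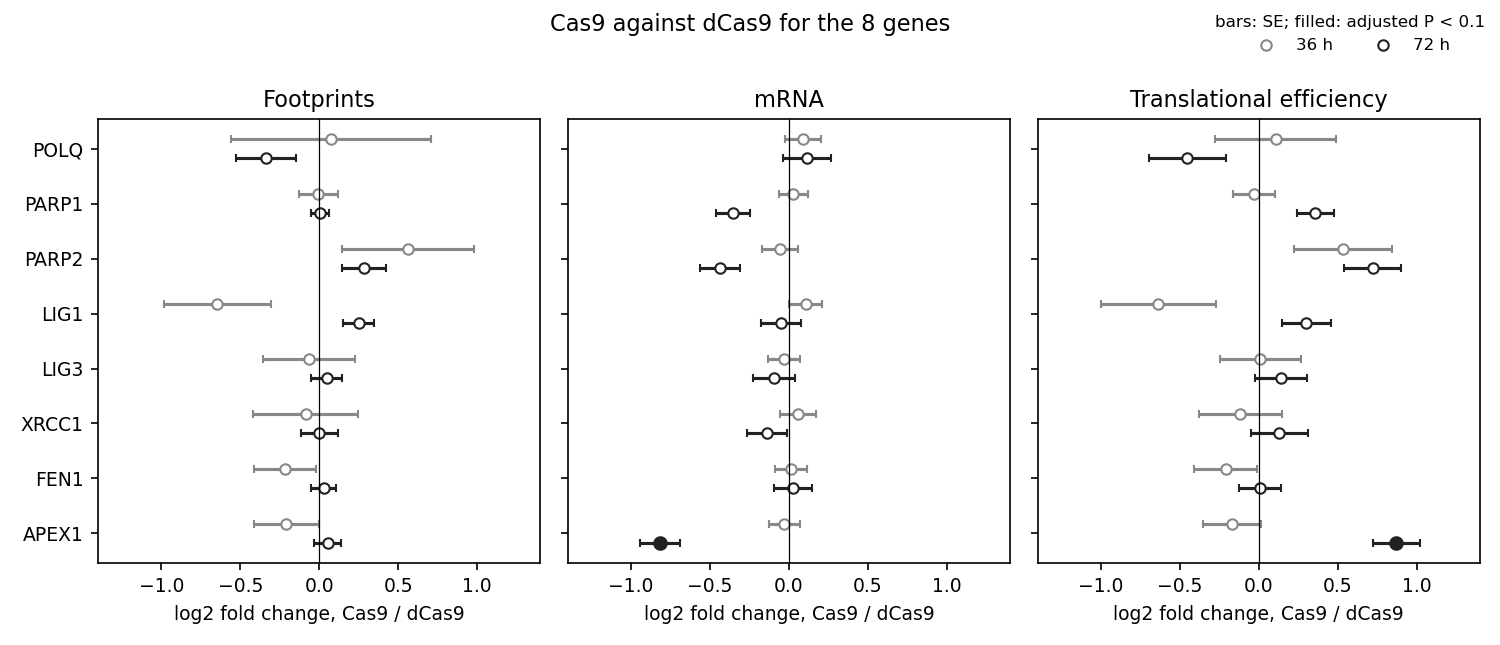
Log2 change of Cas9 against dCas9 (with SE) for the 8 genes in footprints, in mRNA and in translational efficiency, at 36 h (grey) and 72 h (black), with filled points past a false discovery rate of 0.1. APEX1 at 72 h is filled in mRNA (-0.82) and in translational efficiency (0.87), and no other point is filled.

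Translational efficiency is the change in footprints minus the change in mRNA on the log2 scale, fitted over both library types together. Its values need not equal the difference between the separate fits. Translational efficiency was higher for APEX1 in Cas9 cells at 72 h. Its value was 0.87 (SE 0.15, adjusted P = 0.027 by edgeR), 1.83 times the dCas9 ratio, with the mRNA lower and footprints at 187 to 200 CPM in all 4 libraries. APEX1 was the 1 member past the threshold, where 0.716% of all tested genes passed, and 0.698% as higher. The call was lost when any 1 of the 4 footprint libraries at 72 h was left out (0.85 to 0.90, adjusted P = 0.16 to 0.34 by edgeR). PARP2 had a value of 0.72 (SE 0.18, adjusted P = 0.11 by edgeR), which passed in 6 of 8 alternatives that kept every library. Those 8 alternatives called 79 to 625 of all tested genes, beside 78 in the main fit. PARP1 had 0.36 (SE 0.12, adjusted P = 0.25 by edgeR) and POLQ -0.45 (SE 0.25, adjusted P = 0.52 by edgeR). Because the mRNA enters this ratio, these values are not separate evidence from the mRNA changes.

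At 36 h no member passed in translational efficiency, where 0% of all tested genes did and 568 genes (6.3%) had an unadjusted P below 0.05. APEX1 stood at -0.17 (SE 0.18) and PARP1 at -0.03 (SE 0.13). PARP2 at 0.54 (SE 0.31) and LIG1 at -0.64 (SE 0.36) again moved with the dCas9 footprint library left out. Without replicate e the values were 0.34 for PARP2 and -0.06 for LIG1, and without replicate d they were 1.20 for PARP2 and -1.26 for LIG1, the latter past the threshold (adjusted P = 0.031 by edgeR).

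The Cas9 effect on APEX1 mRNA was tested for a difference between the time points. In a fit of all 9 mRNA libraries, the change at 72 h minus that at 36 h was -0.80 (SE 0.14, adjusted P = 0.032 by edgeR), and 0.613% of 8970 tested genes passed. PARP1 and PARP2 had differences of -0.39 (SE 0.13) and -0.39 (SE 0.17), with adjusted P = 0.26 and 0.37 by edgeR. In footprints no member passed this test and 0% of tested genes did, with 287 genes (3.2%) at an unadjusted P below 0.05, and APEX1 had a difference of 0.26 (SE 0.19). The guide preparation, the aligner and the annotation also changed between the time points and cannot be told apart from time. APEX1 mRNA in dCas9 cells was itself lower at 72 h (105 and 118 CPM) than at 36 h (204 and 212 CPM), a level set across tables that were normalized separately.

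**Figure D4:**
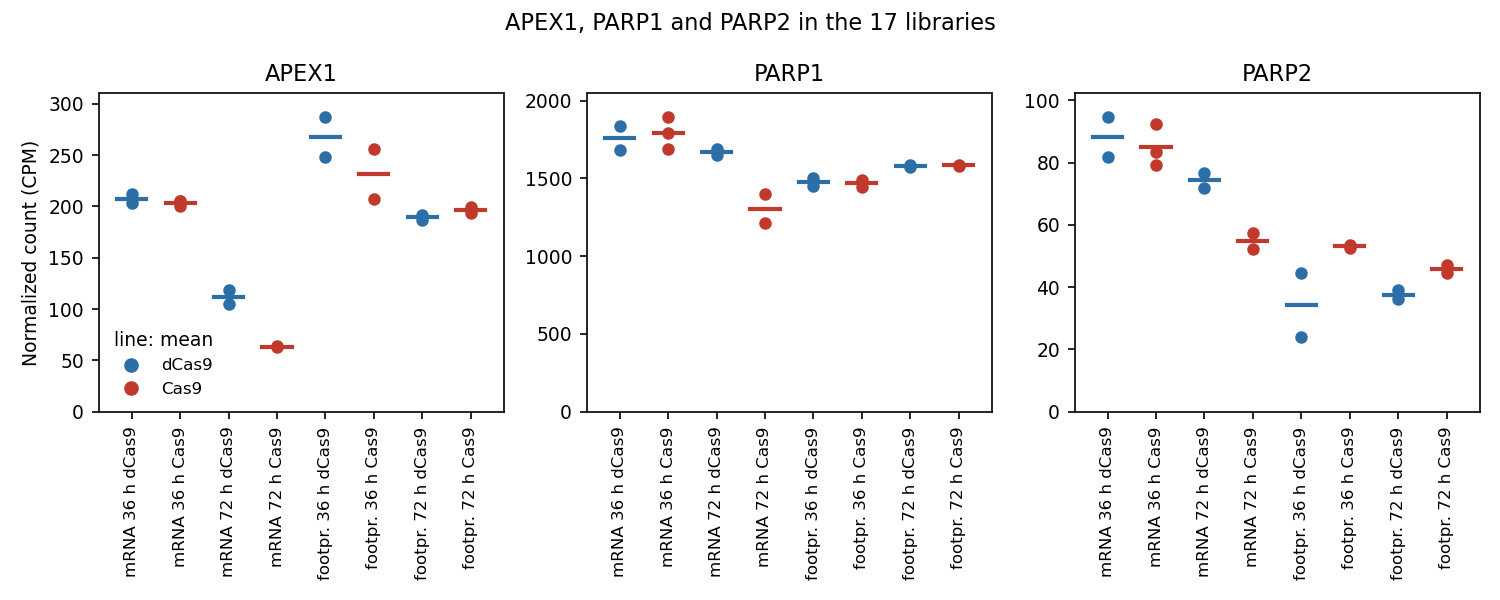
Normalized counts (CPM, axes from 0) of APEX1, PARP1 and PARP2 in the 17 libraries, grouped by library type, time and nuclease, with a line at each group mean. At 72 h the 2 Cas9 points lie below the 2 dCas9 points in mRNA for all 3 genes, while PARP1 footprints stay between 1570 and 1588 CPM.

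No gene of 5 neighbouring pathways passed in mRNA or footprints at 72 h, where only 2.69% and 0.0367% of all tested genes did. This held for the tested genes in lists of ADP-ribose enzymes and readers (8 of 10 tested), other base excision and single-strand break repair genes (16 of 17), DNA end resection (7 of 7), lagging strand synthesis partners (12 of 12) and classical end joining (7 of 8). Their median log2 mRNA changes at 72 h were 0.11, 0.12, 0.31, 0.17 and 0.12, beside -0.12 for the 8 genes and 0.02 for all tested genes. The gene with the lowest P value in mRNA was DNA2, a resection nuclease, with 0.33 (SE 0.15) among the 7 resection genes, of which 6 lay above 0. It was PCNA, the sliding clamp that holds FEN1 and LIG1 on DNA, with 0.33 (SE 0.12) among the lagging strand partners, and XRCC5, which encodes the larger Ku subunit, with 0.24 (SE 0.11) in classical end joining. TDP2, which frees topoisomerase from broken ends, had -0.48 (SE 0.17, adjusted P = 0.23 by edgeR), the lowest P value among the base excision and single-strand break repair genes, and MACROD1, an ADP-ribose hydrolase, had 0.13 (SE 0.14). Of 11 S phase genes, TYMS, thymidylate synthase, was the 1 that passed in mRNA at 72 h, where 2.66% of all tested genes passed as lower. Its log2 change was -0.60 (SE 0.14, adjusted P = 0.077 by edgeR). The HEK293 marker NEFM also passed, with -0.89 (SE 0.21, adjusted P = 0.071 by edgeR), and its part in the results for the 8 genes was not tested.

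In footprints at 72 h the same 5 lists had median log2 changes of 0.03, -0.01, -0.04, -0.01 and -0.04, beside 0.04 for the 8 genes. Their occupancy differed more in the dCas9 cells. Of the 7 resection genes 5 passed as lower in footprints relative to mRNA at 72 h and 0 as higher, where 37.8% of all tested genes passed as lower, and their median was -0.68 beside 0.06 for the 8 genes. RBBP8, which starts resection, stood at -1.92 (SE 0.15), beside -2.09 for POLQ. In classical end joining, 1 of 7 genes passed, NHEJ1 with 0.61 (SE 0.17, adjusted P = 0.0042 by edgeR), where 70.6% of all tested genes passed. Of 11 S phase genes 9 passed as higher, where 32.7% of all tested genes did.

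The genes whose mRNA followed the members most closely were sought over the 9 mRNA libraries, after the mean of each time point was removed. For APEX1 it was RPS16, a ribosomal protein gene, with Pearson r = 0.996, and for PARP1 it was TBCD, a tubulin folding cofactor, with the same value. For POLQ it was BLTP1 (0.98), for PARP2 PITPNA (0.98), for XRCC1 ARVCF (0.99), for LIG3 LSM12 (0.95) and for LIG1 TM7SF2 (0.95). With 8969 genes to choose from and few libraries, the best partner of a typical gene reached 0.97, so values near that are no mark of these genes. Among the 8 themselves, APEX1 varied with PARP2 (r = 0.88) and PARP1 (r = 0.83), and the points share the libraries and the Cas9 contrast.

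Several of the genes lie where counts could be shared. PARP1 has processed pseudogenes on chromosomes 13 and 14 and FEN1 has 1 on chromosome 1, FEN1 overlaps FADS2 on the same strand by 4259 bases, and XRCC1 overlaps ENSG00000268361 on the same strand by 25782 bases. APEX1 overlaps PIP4P1 by 92 bases on the opposite strand, and LIG3 overlaps RFFL and CCT6B there. The mRNA kit keeps strand, but how the reads that fit several places were counted was not examined.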

How the data were processed

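Each library was grouped by the nuclease, time, library type and replicate letter in its label. The authors aligned reads to GRCh38 with hisat2 and GENCODE 22 at 36 h and tophat and GENCODE 25 at 72 h, per the methods, while the submitters' processing notes name HISAT2 2.1.0 for all. The deposited files hold raw counts for each transcript beside a length in codons (20 codons under the annotated coding length at 36 h and 19 at 72 h). Transcripts were matched by identifier to GENCODE 44 on hg38 (25338 of 26679 at 36 h, 94799 of 98334 at 72 h), and each gene was given by its transcript with the highest summed count, the same transcript at both times for all 8 genes. Footprints and mRNA were fitted separately for Cas9 against dCas9, and together for translational efficiency and for footprints against mRNA, in edgeR 4.0.16 (R 4.3.3) with TMM normalization and the two-sided quasi-likelihood test. P values were adjusted by Benjamini-Hochberg over all genes whose mean count reached 20 in each library type, and the threshold was a false discovery rate of 0.1. The scripts were tested on simulated counts, in which the fit of both library types made too many calls at 36 h. CPM divides by library totals times TMM factors, and per kb values also by counted coding length. The 8 genes and the lists were chosen with earlier results of these data known. Named genes are the 8, up to 4 genes of each list that passed or, where none did, the gene with the lowest P value, JAK2, and the most similar gene for each of the 8, of which the one for FEN1 is not reported here. Alternatives were DESeq2 1.42.0, limma 3.58.1, other size factors, no count minimum, removal of each library's GC trend, both library types together, the replicate letter as a block and each library left out. Intervals are 95%.

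Letters shared by libraries were checked for pairing. The correlation of deviations was 0.01 between same-lettered footprint libraries at 72 h and -0.14 between mRNA libraries. It was 0.01 to 0.08 between footprints and mRNA of a lysate at 36 h. The main fits used no pairing. The paper states that each lysate was split between the library types, and with so few libraries these correlations cannot show that pairing is absent. Fits with a replicate block are among the alternatives for Cas9 against dCas9 at 72 h and for translational efficiency. None was run for footprints against mRNA in dCas9 cells, whose P values therefore ignore the sharing of lysates.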

Additional observations from a re-analysis of the deposited data

Results flagged for a closer look

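APEX1 mRNA differed in its response to Cas9 between the time points. The log2 change was -0.03 (SE 0.10) at 36 h and -0.82 (SE 0.13) at 72 h, and their difference, fitted over the 9 mRNA libraries, was -0.80 (SE 0.14, adjusted P = 0.032 by the quasi-likelihood test of edgeR and the Benjamini-Hochberg method). It stayed between -0.80 and -0.75 and past the threshold in the 5 alternatives that kept every library. With 1 library left out it stayed between -0.86 and -0.69, and in 4 of 9 such fits it missed the threshold, with adjusted P = 0.11 to 0.22 by edgeR. These were the fits without 36 h Cas9 replicates b or c, 36 h dCas9 replicate e or 72 h Cas9 replicate a. No group had enough libraries for a test of single outlying values.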

How the results depend on the processing

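Over the 8 genes, 975 of 1024 recomputed values kept their side of the threshold with no counted sign change. Of the rest, 13 lost a call, 35 gained one and 1 was counted as a sign change. A sign change was counted only if the reported value had passed the test or was at least as large as its SE. Smaller values that changed sign are among the 975, so these did not all keep their direction. For LIG3 in translational efficiency at 36 h, 5 of 9 left-out fits kept the sign. The counted sign change was LIG1 in footprints at 36 h, from -0.65 to 0.0067 without dCas9 replicate e. That value was far smaller than its own SE, and the left-out fits ranged from -1.1785 to 0.0067. Counts of genes past the threshold moved more. In mRNA at 36 h the 2 calls became 0 with DESeq2, median-ratio size factors, the GC trend removed or both library types together, and translational efficiency at 36 h rose from 0 to 1 with DESeq2. In footprints at 72 h the 4 became 7 with the GC trend removed, 0 with both types together and 7 with the replicate block. In mRNA at 72 h the 293 became 185 with median-ratio size factors, 505 without a count minimum, 2377 (849 higher, 1528 lower) with the GC trend removed, 613 with both types together, 725 with the replicate block and 829 with the crossed block, which was chosen after seeing the data. In translational efficiency at 72 h the 78 became 221 with DESeq2, 170 with median-ratio size factors, 260 without a count minimum, 625 with the GC trend removed, 136 with limma, 88 with the replicate block and 249 with the crossed block. For the difference between times in mRNA the 55 became 213 with DESeq2 and 583 with the GC trend removed. The cause of these shifts was not tested.

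With 1 library left out, the lone library being assumed to vary like the others, the counts ranged from 0 to 72 in footprints at 36 h, 1 to 41 in footprints at 72 h, 0 to 218 in mRNA at 36 h, 5 to 2828 in mRNA at 72 h, 0 to 474 and 1 to 1065 in translational efficiency at 36 and 72 h, 0 to 40 and 1 to 269 for the difference between times in footprints and mRNA, and 2994 to 4889 and 6623 to 7802 for footprints against mRNA at 36 and 72 h. Counts of 13 to 207 for POLQ footprints limit what could be seen for that gene. With the replicate block, where 725 of all tested genes passed in mRNA at 72 h, PARP1 and PARP2 mRNA passed, with adjusted P = 0.0067 and 0.095 by edgeR. No call for APEX1 was lost in the comparisons that were fitted with it.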
